A study of Caenorhabditis elegans with 2 samples.

Results

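The genes described are 8 heat shock protein genes of the nematode Caenorhabditis elegans and hsf-1, the gene of their transcriptional regulator. The list was drawn up by name, as hsp-1, hsp-3, hsp-4, hsp-6, hsp-70, hsp-110, hsp-90, hsp-60 and hsf-1, and all 9 were found among the 19973 protein-coding nuclear genes of the annotation. The choice was made with the ranks and signals of the same region lists already known, so the counts and ranks below describe these genes and support no test. Regions came from chromatin immunoprecipitation followed by sequencing (ChIP-seq) of NHR-28, a nuclear hormone receptor carrying an enhanced green fluorescent protein (eGFP) tag. The series held 1 group, whole L3 larvae of strain OP317 of mixed sex, with 2 biological replicates from separate biosamples. Every animal carried the mutation unc-119(ed3) and the transgene wgIs317, from which the tagged receptor comes. There was no second condition, the tissue of origin cannot be told apart in whole animals, and the control named for the experiment was not analysed here.

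Heat shock proteins are chaperones that bind unfolded or partly folded proteins and, in most families, release them in a cycle driven by ATP. HSP70 proteins work in the cytosol, the endoplasmic reticulum (ER) and mitochondria, HSP110 proteins exchange nucleotide on HSP70, HSP90 acts late on signalling proteins, and HSP60 forms a folding chamber in mitochondria. HSF-1 binds DNA as a trimer at heat shock elements, arrays of the unit GAA in alternating orientation, and drives chaperone genes during stress and development.

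The authors deposited 3 candidate lists on build ce11 and a final set. The pooled list held 20876 regions, each replicate list 30000 and the final set 162 peaks, which were the 162 strongest pooled regions. Candidate lists include background by construction, and their q values reached 0.961 in the pooled list. Signal is the authors' own value per region and its scale is not stated, so it is read within 1 list, where the median was 13.1 in the pooled list, 5.33 in replicate 1 and 8.68 in replicate 2. Rank 1 is the strongest region of a list. Read depth is unknown because the lists hold no counts, and a value in 1 list has no SD or n.

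Among the 9 genes, hsp-90 and hsp-110 had a final peak within the gene or 2000 bp either side, the window used throughout. That is 2 of 9 genes, where 1.54% of all protein-coding genes had one. With the promoter window alone (1000 bp upstream to 500 bp downstream of an annotated start) the same 2 genes held a final summit, and 0.596% of all genes did. Pooled regions of any strength overlapped the windows of 7 genes, all except hsp-4 and hsp-70, where the share over all genes was 74.5%. Replicate 1 had a region at 9 of 9 genes (85.9% of all genes) and replicate 2 at 8 of 9 (85.6%), hsp-70 being the gene without one. In 7 genes the regions of the replicates overlapped each other by at least 1 bp (44.8% of all genes). Pooled regions with a q value of at most 0.05 were present at 3 of 9 genes, which were hsp-90, hsp-110 and hsp-1 (2.75% of all genes). A region ranked 1000 or better was present at 6 of 9 genes in the pooled list (7.65% of all genes), at 6 of 9 in replicate 1 (7.64%) and at 4 of 9 in replicate 2 (7.65%). The rank of 1000 was chosen after the values had been seen. Since these lists also guided the choice of genes, nothing is read from the differences in share. The final count depends on the replicate: among the 162 strongest nuclear regions of replicate 2 alone the only gene of the 9 was hsp-90, and among those of replicate 1 alone the genes were hsp-1 and hsp-110.

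**Figure D1:**
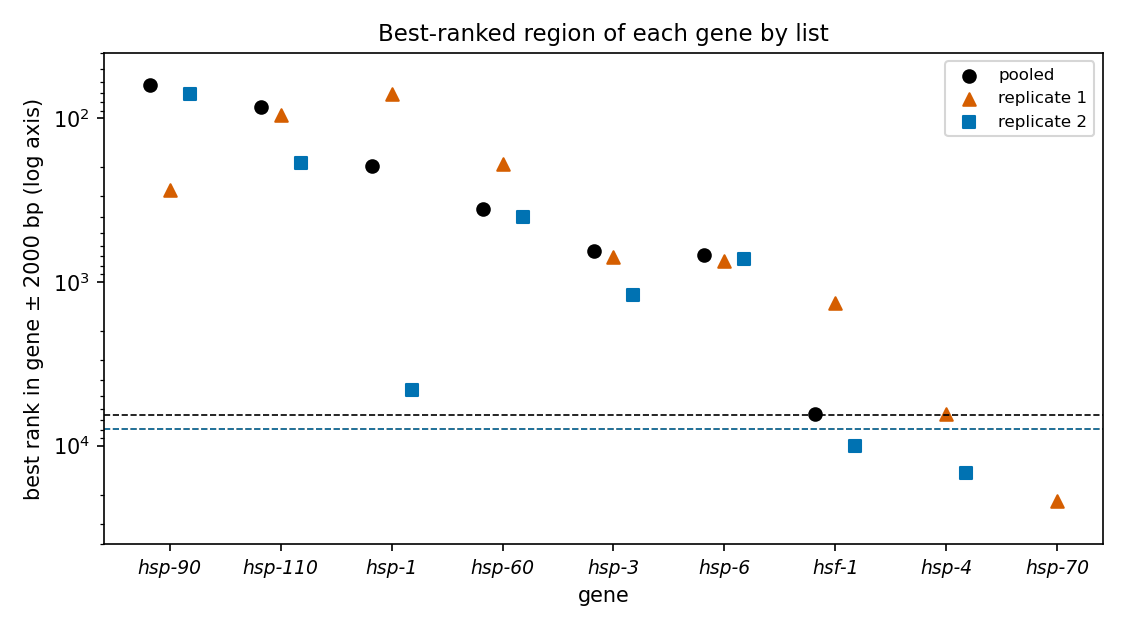
Best-ranked region of each gene in the pooled list (circles), replicate 1 (triangles) and replicate 2 (squares), within the gene and 2000 bp either side, with rank on a log axis running from weak at the bottom to strong at the top. Dashed lines are the medians over all protein-coding genes with a region (6486 in the pooled list, 7947 and 7969 in replicates 1 and 2, the last pair of lines nearly coinciding). The genes hsp-90 and hsp-110 rank 273 or better in all 3 lists, and hsp-4 and hsp-70 have no pooled region.

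Over the 7 genes with a pooled region the best rank had a median of 359 and ran from 63 at hsp-90 to 6412 at the regulator gene hsf-1. Over all protein-coding genes with a pooled region the median best rank was 6486. The median best rank was 706 over 9 genes in replicate 1 (7947 over all genes) and 969 over 8 genes in replicate 2 (7969 over all genes). Replicate 1 ranks count 16 mitochondrial regions, which the other lists lack, and without them its median over the 9 genes was 691. Longer windows hold more regions, and the median gene length was 3000 bp for the 9 genes and 2027 bp for all genes. The 9 windows covered 71104 bp and held 25 pooled regions, or 3.52 per 10 kb, against 2.08 per 10 kb in the nuclear genome. The density was 4.78 against 2.99 per 10 kb in replicate 1 and 4.50 against 2.99 per 10 kb in replicate 2. Of the 25 pooled summits, 11 lay in introns, 10 between genes, 2 in coding exons and 2 in exons outside the coding sequence. A pooled summit fell in the promoter window of 7 of 9 genes (34.3% of all genes), and hsp-90 and hsf-1 enter this count only through a second annotated start, 186 and 431 bp from summits at hsp-90 and 426 bp from one at hsf-1.

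The HSP110 and HSP90 genes held the only final peaks of the set. hsp-110 (WBGene00016250, chrIII:8443910-8446909, minus strand) encodes the HSP110 partner of HSP70. Its pooled region, chrIII:8447007-8447346, had a signal of 39.7 and ranked 85. In replicate 1 the overlapping region had a signal of 17.02 and ranked 96, and in replicate 2 it had a signal of 22.2 and ranked 187. Both replicates therefore placed it in the strongest part of their lists, with summits 23 bp apart. The pooled summit lay 268 bp upstream of the hsp-110 start and between genes. It also lay 176 bp upstream of rpn-3, the gene for a regulatory subunit of the proteasome, which is transcribed in the opposite direction from a start 444 bp away. A non-coding RNA gene, C30C11.14, overlaps the region, with its start 82 bp from the summit. The only other region in the window was a weak one of replicate 1 in the gene body, with rank 18242. The 300 bases centred on the pooled summit (chrIII:8447027-8447326, build ce11, strand of hsp-110, from the RefSeq copy of WBcel235) are printed because they hold a full heat shock element close to the summit. Capitals mark every match to TTCNNGAA or GAANNTTC on either strand, and the longer run is the full heat shock element, TTCNNGAA extended by NNTTC.
hsp-110 region: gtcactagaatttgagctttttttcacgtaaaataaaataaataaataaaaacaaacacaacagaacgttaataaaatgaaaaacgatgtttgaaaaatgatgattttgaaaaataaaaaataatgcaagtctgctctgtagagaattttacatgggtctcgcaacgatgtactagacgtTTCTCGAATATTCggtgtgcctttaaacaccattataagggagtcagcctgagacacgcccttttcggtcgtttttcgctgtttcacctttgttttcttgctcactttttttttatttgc

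hsp-90 (WBGene00000915, chrV:14684918-14688545, plus strand) encodes cytosolic HSP90, the chaperone of kinases and steroid receptors in many animals. Its pooled region, chrV:14685559-14685898, was the strongest of the 9 genes, with a signal of 44.1 and rank 63. The overlapping region had a signal of 13.6 and rank 273 in replicate 1 and a signal of 30.3 and rank 71 in replicate 2, with summits 30 bp apart. The gene has 2 annotated starts, and the summit lay in the first intron of the longer transcript, 811 bp downstream of the upstream start and 431 bp upstream of the downstream one. The nearest start of all was that of C47E8.4 on the other strand, 244 bp away, so the region lies upstream of C47E8.4 and of the shorter hsp-90 transcript at once. A second, overlapping region, chrV:14685804-14686143, had a pooled signal of 12.34 and ranked 12712. Replicate 2 called it separately at rank 1407. Replicate 1 made no separate call there, but its region of rank 273 overlapped this second region. The remaining regions in the window ranked 6869 or weaker in their lists, and the one ranked 6869, of replicate 1, overlapped a tRNA gene in gasr-8. The hsp-90 sequence (chrV:14685579-14685878, plus strand) is shown for contrast with hsp-110, since its matches are single pairs only.
hsp-90 region: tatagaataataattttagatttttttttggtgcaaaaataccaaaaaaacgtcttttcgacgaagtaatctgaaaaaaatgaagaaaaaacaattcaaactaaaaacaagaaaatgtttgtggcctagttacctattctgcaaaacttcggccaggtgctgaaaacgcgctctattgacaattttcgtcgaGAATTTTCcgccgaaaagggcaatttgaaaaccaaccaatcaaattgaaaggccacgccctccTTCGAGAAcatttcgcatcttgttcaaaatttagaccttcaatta

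Of the cytosolic HSP70 genes, hsp-1 had an upstream region in all 3 lists and hsp-70 had a single weak one. hsp-1 (WBGene00002005, chrIV:17278959-17281330, plus strand) encodes the constitutive cytosolic HSP70. Its pooled region, chrIV:17278440-17278779, had a signal of 30.9, rank 197 and a q value of 0.0127, just below the weakest final peak, whose signal was 32.8. In replicate 1 the region upstream of hsp-1 (chrIV:17278362-17278711) had a signal of 19.1 and ranked 71. In replicate 2 it (chrIV:17278541-17278880) had a signal of 12.07 and ranked 4558, a rank 64.2 times as large. The replicate summits lay 174 bp apart, where the median over 870 pooled regions of rank 1000 or better was 48 bp. The pooled summit lay 349 bp upstream of the hsp-1 start. It lay 197 bp downstream of the start of a short non-coding gene, F26D10.23, on the same strand, and past its end. The pooled region overlapped F26D10.23, and the replicate 2 region did not. No other protein-coding start lay within 1000 bp of the pooled summit, and in replicate 1 the start of clec-196, a C-type lectin gene, lay exactly 1000 bp away. The other 3 pooled regions of hsp-1 ranked 15370 or weaker. One of them overlapped the intronic small nucleolar RNA gene F26D10.24, and the others lay over nra-1, the next gene. The hsp-1 sequence (chrIV:17278460-17278759, plus strand) is shown because its rank differed between the replicates, and it holds 1 pair.
hsp-1 region: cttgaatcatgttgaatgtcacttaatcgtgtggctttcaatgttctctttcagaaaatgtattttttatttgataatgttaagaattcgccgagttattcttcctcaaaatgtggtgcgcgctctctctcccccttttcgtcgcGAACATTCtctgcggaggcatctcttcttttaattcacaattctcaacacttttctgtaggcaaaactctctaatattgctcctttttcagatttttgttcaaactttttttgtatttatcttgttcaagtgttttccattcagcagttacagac

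hsp-70 (WBGene00002026, chrI:9320325-9322519, minus strand) encodes a cytosolic HSP70 that is strongly induced by heat. It had no pooled region and none in replicate 2. Its single region was in replicate 1, chrI:9320098-9320447, with a signal of 4.53, rank 21692 and a q value of 0.727. That summit lay 52 bp past the end of hsp-70, in an intron of uggt-2, the gene within which hsp-70 lies on the other strand, and the region overlaps a tRNA gene. The pair hsp-1 and hsp-70 thus holds rank 71 against rank 21692 in replicate 1.

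The ER genes hsp-3 and hsp-4 both encode homologues of BiP, the main HSP70 of the ER lumen. hsp-3 (WBGene00002007, chrX:6089028-6092124, minus strand) had 3 pooled regions. The strongest, chrX:6088474-6088813, had a signal of 23.1 and rank 651, and its summit lay 384 bp past the end of the gene. That region ranked 4805 in replicate 1 (signal 7.60) and 1209 in replicate 2 (signal 15.6), and its summit was 668 bp downstream of the start of C45B2.8, outside that gene. The next, chrX:6090393-6090732, lay in a coding exon of hsp-3 with a signal of 22.03 and rank 850. It ranked 706 in replicate 1 (signal 11.3) and 12995 in replicate 2 (signal 9.12), so the strongest hsp-3 region of replicate 1 lay inside the gene and that of replicate 2 past its end. This exon also holds the annotated start of a short hsp-3 transcript 92 bp from the summit. The pooled region upstream of the main hsp-3 start was weak, with rank 19021 and its summit 719 bp away. Replicate 2 alone held a region 79 bp upstream of that start, chrX:6092033-6092372, with a signal of 11.8 and rank 4933. hsp-4 (WBGene00002008, chrII:7350112-7352645, minus strand), which is induced by ER stress, had no pooled region. Its 3 regions in replicate 1 ranked between 6437 and 14238, its 2 in replicate 2 ranked 14807 and 18373, and no replicate 1 region overlapped a replicate 2 region there.

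The mitochondrial chaperones hsp-6 and hsp-60 had regions at both gene ends. hsp-6 (WBGene00002010, chrV:4824124-4826760, minus strand) encodes mitochondrial HSP70. Upstream of it, chrV:4827031-4827370 had a pooled signal of 18.03 and rank 2527, and it ranked 741 in replicate 1 (signal 11.2) and 22448 in replicate 2 (signal 7.42). At the other end, chrV:4824143-4824482 in the last exon had a pooled signal of 22.9 and rank 689. It ranked 895 in replicate 2 and was not called in replicate 1. A further region 401 bp past the end, chrV:4823553-4823892, had a pooled signal of 22.2 and rank 810, with rank 16861 in replicate 1 and 729 in replicate 2. Replicate 1 therefore held its best hsp-6 region upstream of the gene and replicate 2 at the far end. The far-end summits lay 890 and 300 bp upstream of adss-1, a purine synthesis gene on the same strand. The upstream summit lay 441 bp from the hsp-6 start and 159 bp upstream of the divergent gene C37H5.5. The upstream region overlapped the non-coding genes C37H5.15 and C37H5.16.

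hsp-60 (WBGene00002025, chrIII:1619742-1625803, plus strand) encodes the mitochondrial chaperonin and had the most pooled regions of the set, 8 in a window of 10062 bp. The upstream region, chrIII:1618957-1619296, had a pooled signal of 23.3 and rank 623. It ranked 12771 in replicate 1 (signal 5.67) and 400 in replicate 2 (signal 18.9). The region just past the gene end, chrIII:1625714-1626053, had a pooled signal of 26.3 and rank 359. It ranked 190 in replicate 1 (signal 14.5) and 4513 in replicate 2 (signal 12.101). The order of these ends was thus opposite in the replicates, and also opposite to that of hsp-6, where replicate 1 was the stronger upstream. The upstream summit lay 615 bp from the hsp-60 start and 198 bp upstream of the divergent gene Y22D7AL.10, and the far-end summit lay 748 bp upstream of Y22D7AL.4. Between the ends, 4 regions had their summit in introns of hsp-60, with pooled ranks from 2172 to 13120. The upstream sequence (chrIII:1618977-1619276, plus strand) is printed because it holds a full heat shock element and a separate pair.
hsp-60 region: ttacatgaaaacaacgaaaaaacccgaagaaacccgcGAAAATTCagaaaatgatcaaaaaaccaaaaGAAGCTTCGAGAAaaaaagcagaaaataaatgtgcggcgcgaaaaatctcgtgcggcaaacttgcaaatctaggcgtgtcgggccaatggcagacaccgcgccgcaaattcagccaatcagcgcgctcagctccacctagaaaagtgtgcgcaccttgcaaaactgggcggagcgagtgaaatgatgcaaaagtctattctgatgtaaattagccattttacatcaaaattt

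The regulator gene hsf-1 (WBGene00002004, chrI:11953507-11963085, minus strand) had weak regions throughout its length. Its 4 pooled regions had signals between 12.4 and 14.8 and ranks between 6412 and 12451, and 3 of them lay in introns of hsf-1. The best, chrI:11960115-11960454, ranked 24375 in replicate 1 and 10079 in replicate 2. The strongest call was that of replicate 1 at chrI:11964769-11965118, with a signal of 9.97, rank 1344 and a q value of 0.0473. It lay 1859 bp upstream of the first start, matched a pooled region of rank 12451 and had no counterpart in replicate 2. No start of another protein-coding gene lay within 1000 bp of the strongest hsf-1 region of any list.

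**Figure D2:**
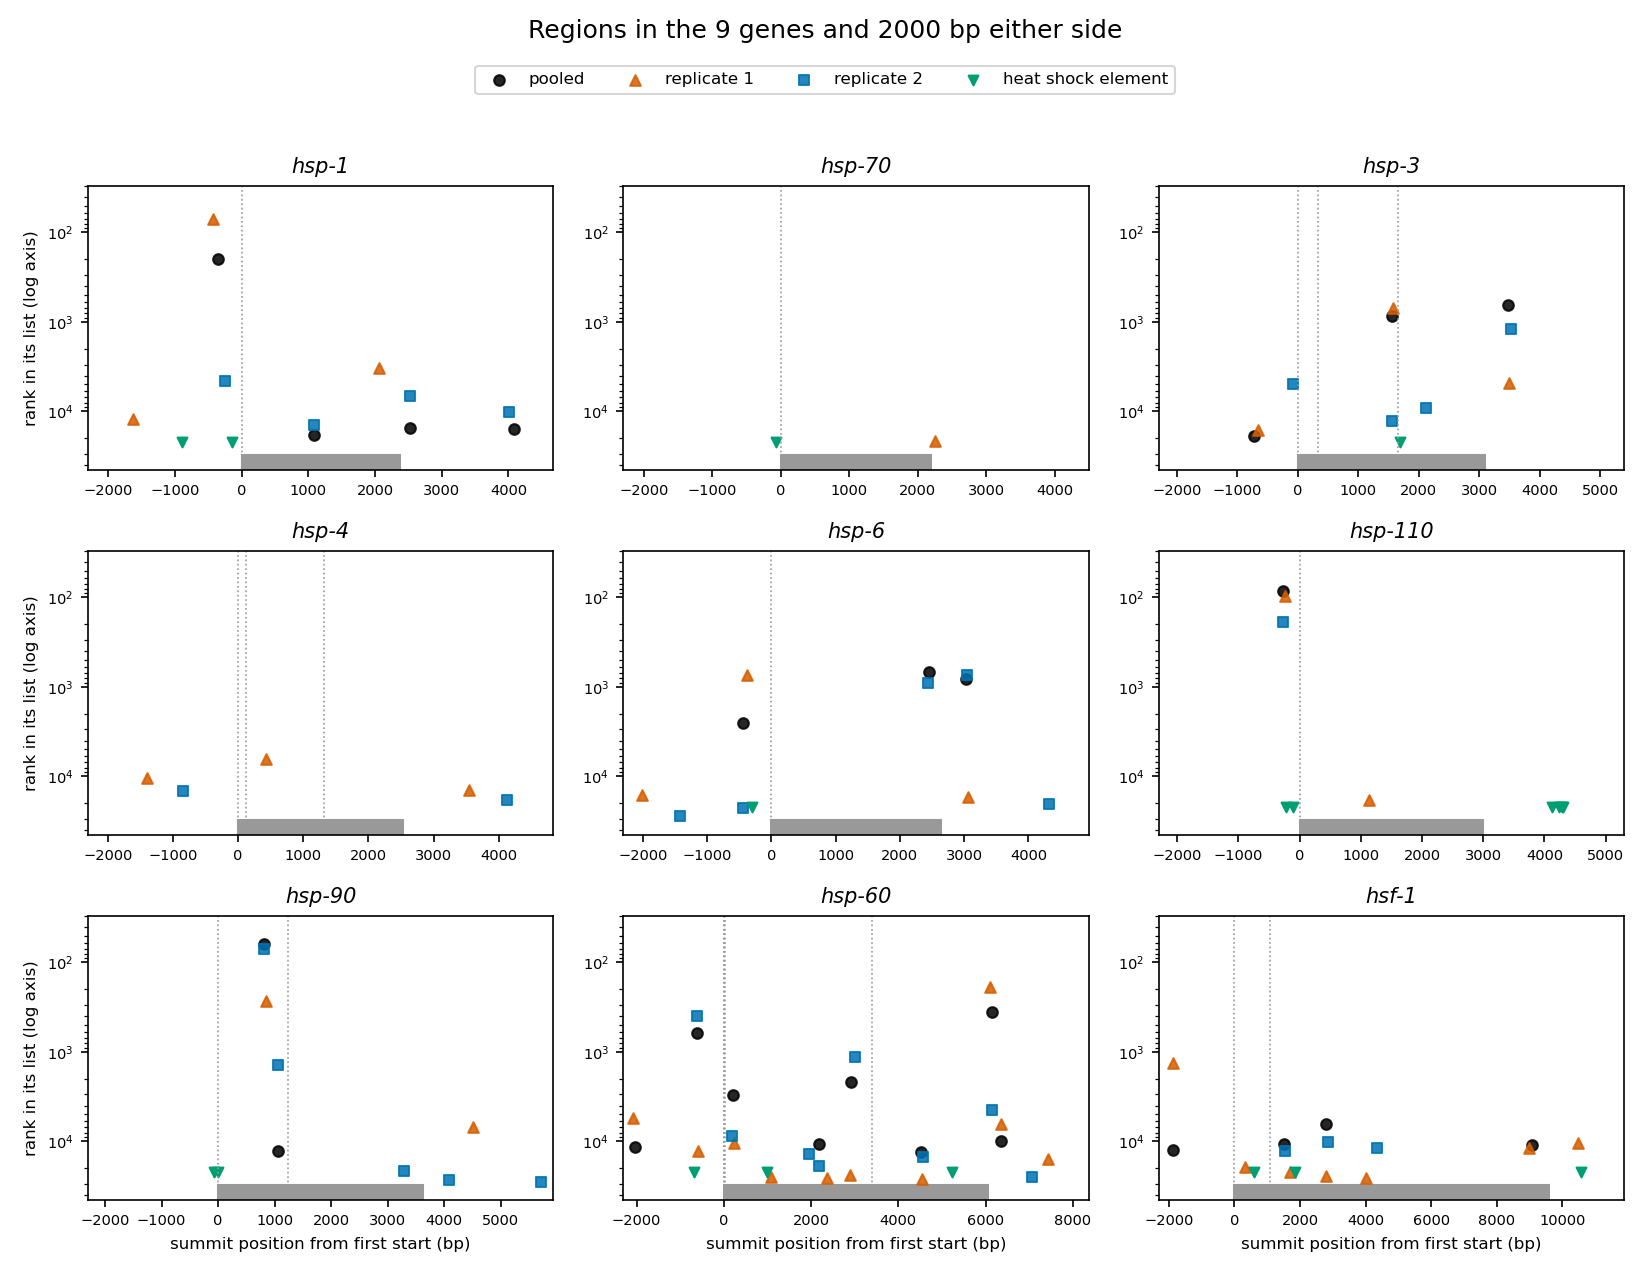
Regions of the 9 genes, with the summit's distance in bp from the gene's first annotated start along its direction of transcription on the x axis and rank within the list on a log y axis (strong at the top). Circles are pooled regions, triangles replicate 1, squares replicate 2, grey bars gene bodies, dotted lines annotated starts, and green triangles at a fixed height mark full heat shock elements, as searched in the text. Markers of all 3 lists coincide upstream of hsp-110 and inside hsp-90, while at hsp-6 and hsp-60 the top marker is at opposite ends in the replicates.

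Replicate ranks were compared at pooled regions ranked 163 to 1000, just below the final set, a range chosen after the values had been seen. The 9 genes had 7 such regions, and 6 of them overlapped a region in both replicates. In 5 of these 6 the replicate ranks differed by at least 10-fold, where 42.2% of 708 pooled regions in this range did. The median difference was 23.4-fold over the 6 regions and 6.80-fold over the 708. The better rank was in replicate 1 for 3 of the 6 regions and in replicate 2 for the other 3. Over all 708 regions replicate 1 was the better for 38.6%. The exception was the hsp-3 region past the gene end, with ranks 4805 and 1209. The seventh region, in the last exon of hsp-6, was called in replicate 2 only. Among the 162 final peaks 23.5% differed by at least 10-fold, and neither hsp-90 nor hsp-110 did. Summit positions were close in most cases, 18 to 46 bp apart at the 7 regions of rank 1000 or better other than hsp-1 that both replicates held.

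**Figure D3:**
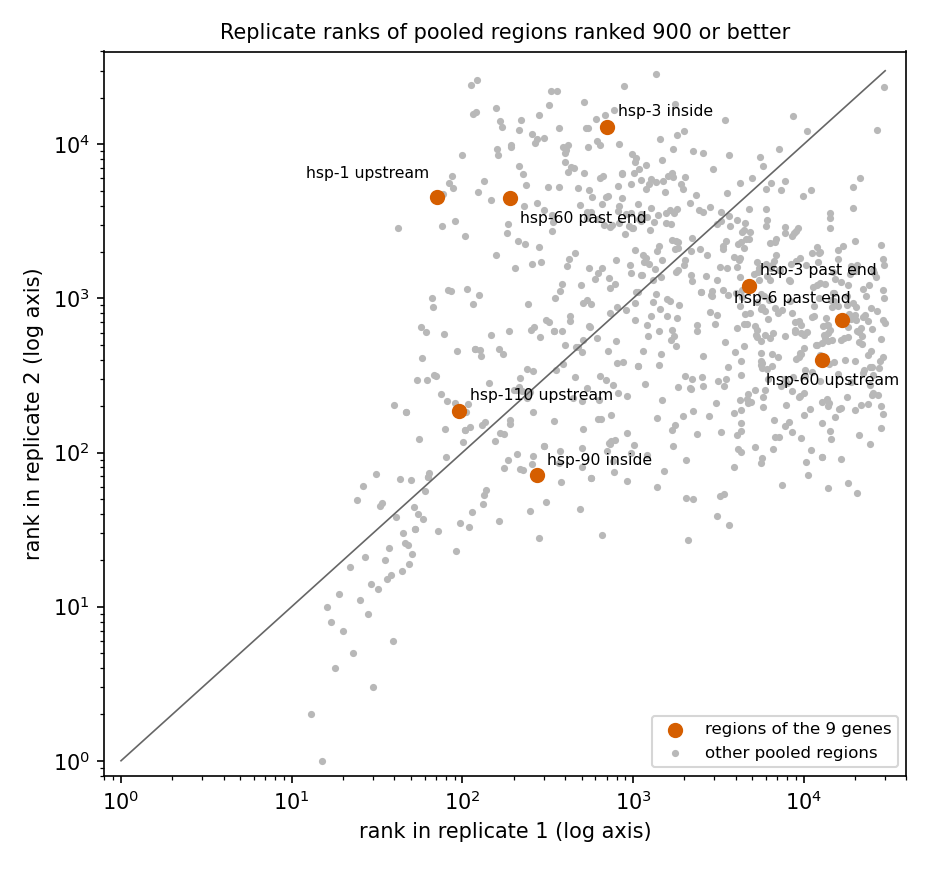
Rank in replicate 1 (x, log axis) against rank in replicate 2 (y, log axis) for pooled regions ranked 900 or better that overlap a region of each replicate. Orange points are the 8 such regions of the 9 genes, labelled by their place relative to the gene, grey points all other pooled regions, and the line marks equal ranks. hsp-110 and hsp-90 lie near the line, and the regions of hsp-1, hsp-6 and hsp-60 lie far from it on both sides.

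The full heat shock element was searched as TTCNNGAA extended by NNTTC, on both strands. Each match contains one TTCNNGAA and one GAANNTTC, which were also searched alone. Among the 25 pooled regions of the 9 genes, 4 (16%) held the full element in the 300 bases around the summit, and 2.28% of all 20876 pooled regions did. The 4 were the hsp-110 region, the upstream regions of hsp-6 and hsp-60 and the exonic region of hsp-3. TTCNNGAA was present in 10 of the 25 (40%, against 20.3% of all pooled regions) and GAANNTTC in 11 (44%, against 21.2%). A TTCNNGAA at hsp-90 and a GAANNTTC at hsp-60 each lay in a pair of overlapping regions and so counted in both. Stronger pooled regions in general did not hold the full element more often. The share was 1.85% among ranks 1 to 162 and 1.67% among ranks 163 to 1000. It was 2.48% among ranks 1001 to 5000 and 2.27% among ranks 5001 to 20876. In the 100 bases around the summit, hsp-110 was the single region of the 25 with the full element, and 0.742% of all pooled regions held it there. The windows and genes were not chosen on sequence, but chaperone promoters are known for this element. Whether its presence bears on what was bound was not tested.

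Distances between elements and summits differed from gene to gene. Of the 16904 matches in the nuclear genome, 3.99% lay wholly inside a pooled region, with overlapping matches counted singly. In the 9 windows overlapping matches were merged into 19 separate elements, so the units differ. Of these 19 elements, 5 lay wholly inside a pooled region. Those 5 were 2 at hsp-110 and 1 each at hsp-3, hsp-6 and hsp-60. The hsp-110 elements lay 231 and 109 bp upstream of its start, 37 and 159 bp from the pooled summit. The hsp-60 element lay 691 bp upstream of the start and 76 bp from the summit, and that of hsp-6 lay 301 bp upstream and 140 bp from the summit. At hsp-90 the elements lay 79 and 9 bp upstream of the upstream start, 890 and 820 bp from the pooled summit and outside every region of the lists. At hsp-1 an element 138 bp upstream of the start lay 211 bp from the pooled summit, outside the pooled and replicate 1 regions and inside that of replicate 2. At hsp-70 the element 67 bp upstream of the start lay in no region of any list. At hsp-1 the element 897 bp upstream of the start also lay in no region. At hsp-60, elements 968 and 1855 bp downstream of the nearest start lay outside the pooled regions, the first inside a replicate 1 region of rank 25406. The hsf-1 window held 3 elements, none in a pooled or replicate 2 region and 2 in replicate 1 regions of ranks 10550 and 22148. The hsp-4 window held no match. A run of matches past the end of hsp-110, over ufbp-1, makes up 4 of the 19 elements. With overlapping matches counted singly, it makes up 12 of the 29 matches in the windows. The density of 4.08 matches per 10 kb in the windows, against 1.69 in the nuclear genome, rests in large part on that run. The elements are printed in capitals with 8 bases on either side, on the strand of the gene, to show the spacing at the starts that have a region over the element and those that do not.
hsp-110, chrIII:8447126-8447154, inside the region: ctagacgtTTCTCGAATATTCggtgtgcc
hsp-110, chrIII:8447004-8447032, inside the region: atttgctcGAAATTTCTAGAAaaatattt
hsp-60, chrIII:1619037-1619065, inside the region: aaccaaaaGAAGCTTCGAGAAaaaaagca
hsp-6, chrV:4827047-4827075, inside the region: ttctttttTTCGAGAAATTTCtcgagttt
hsp-3, chrX:6090411-6090444, inside the region: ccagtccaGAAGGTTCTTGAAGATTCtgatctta
hsp-1, chrIV:17278807-17278835, outside the pooled region: cgaaattcGAATTTTCTAGAAtcccgcca
hsp-90, chrV:14684825-14684853, outside every region: aacagtttTTCTCGAATGTTCtacaaaaa
hsp-90, chrV:14684895-14684923, outside every region: atttttctTTCTCGAAAGTTCtcaaattt

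Nearer to the annotated starts, in the window of 250 bases before to 50 after, 5 of the 9 genes held the full element (hsp-90, hsp-3, hsp-1, hsp-70 and hsp-110), counting a gene with a match at any of its 1 to 4 starts, and 2.53% of all 19973 genes did by the same count. hsp-3 enters this count through its internal start. The core TGACGTG of an ER stress element was present at the starts of hsp-3 and hsp-4 (2 of 9 genes, 3.84% of all genes) and in none of the 25 pooled regions (2.23% of all pooled regions). The nuclear receptor half-site letters AGGTCA were in none of the 25 regions (7.01% of all pooled regions, 8.64% of ranks 1 to 162). CTGCGTCTC was in none either (1.78%, and 11.1% of ranks 1 to 162). At the starts, AGGTCA was present at hsf-1 (1 of 9 genes, 10.4% of all genes) and CTGCGTCTC at hsp-3 (1 of 9, 3.63%). No match says only that these letters are not in the windows searched. The GC content of the 25 regions had a median of 35% and ran from 18% to 47.3%, against a median of 33.3% over all pooled regions.

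Other chaperone and stress genes were read from lists whose members were taken by name. Of all protein-coding genes, 1.54% had a final peak and 7.65% had a pooled region ranked 1000 or better. The median best pooled rank over all genes was 6486. Medians are over the genes of a list with a pooled region, and a best region may lie nearest another gene. Nothing is read from the differences. Of 8 other HSP70 and HSP90 family genes, none had a final peak, 1 had a pooled region ranked 1000 or better, and the median best pooled rank was 5191. That gene was hsp-75, related to the mitochondrial HSP90, with rank 494 at 5491 bp downstream of its start. T14G8.3 followed at rank 1790, enpl-1, the ER member of the HSP90 family, at 2419 and T24H7.2 at 5191. Small heat shock proteins hold unfolded proteins without ATP, and the median best rank of their genes was 8243. A final peak lay in the window of 2 of 16 genes (1.54% of all genes). Those 2, hsp-12.3 and hsp-12.6, share 1 peak (chrIV:9444514-9444853, signal 33.0, rank 159) that lay nearest the start of F38E11.9. The next were sip-1 (rank 311) and hsp-17 (rank 742).

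DNAJ co-chaperones, which stimulate HSP70, had no final peak in 29 genes and a median best rank of 5818. A pooled region ranked 1000 or better was present at 5 of them (7.65% of all genes). The best were dnj-16 (rank 181), dnj-20 (227), dnj-12 (296) and dnj-25 (482). The dnj-16 region lay 25 bp upstream of xbp-1, not at the dnj-16 start. Those of dnj-20, dnj-12 and dnj-25 lay 326, 34 and 334 bp upstream of hal-3, tmem-107 and srxa-6. They lay 1719, 2444 and 4436 bp downstream of the nearest start of their own gene. Among 12 co-chaperones of HSP70 and HSP90, sti-1, which links the 2 chaperones, had a final peak (chrV:773250-773589, signal 32.9, rank 161) 98 bp upstream of its own start. It ranked 428 in replicate 1 and 772 in replicate 2. The myosin chaperone gene unc-45 followed at rank 364, then bag-1 at 824 and sgt-1 at 1917, and the list's median was 4128. The unc-45 region lay 11104 bp downstream of the unc-45 start, and the sgt-1 region lay nearest the start of btbd-10. The bag-1 region of pooled rank 824 overlapped a replicate 2 region of rank 170 and no region of replicate 1.

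The 7 genes listed as HSF-1 regulators, a role not examined here, had no final peak. None had a pooled region ranked 1000 or better, and their median best rank was 9140. The best were daf-16 (rank 2491), hsb-1 (4173), daf-2 (5264) and hcf-1 (13015). ER stress genes had a final peak in 1 of 15 (1.54% of all genes), at the AAA ATPase gene cdc-48.1 (rank 8, 171 bp upstream of its start). The list's median was 3313, and 5 of its genes ranked 1000 or better (7.65% of all genes). They included pdi-2 (rank 177) and pdi-6 (241), both for protein disulfide isomerases, and xbp-1 (181), the transcription factor that induces hsp-4. The pdi-2 region lay 2656 bp downstream of the nearest pdi-2 start. The region at xbp-1 ranked 382 in replicate 1 and 1232 in replicate 2. Mitochondrial stress genes had no final peak in 10 genes and 1 gene ranked 1000 or better, hmg-5 (497), followed by dve-1 (1239), ubl-5 (1601) and met-2 (2920), with a median of 3775.

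**Figure D4:**
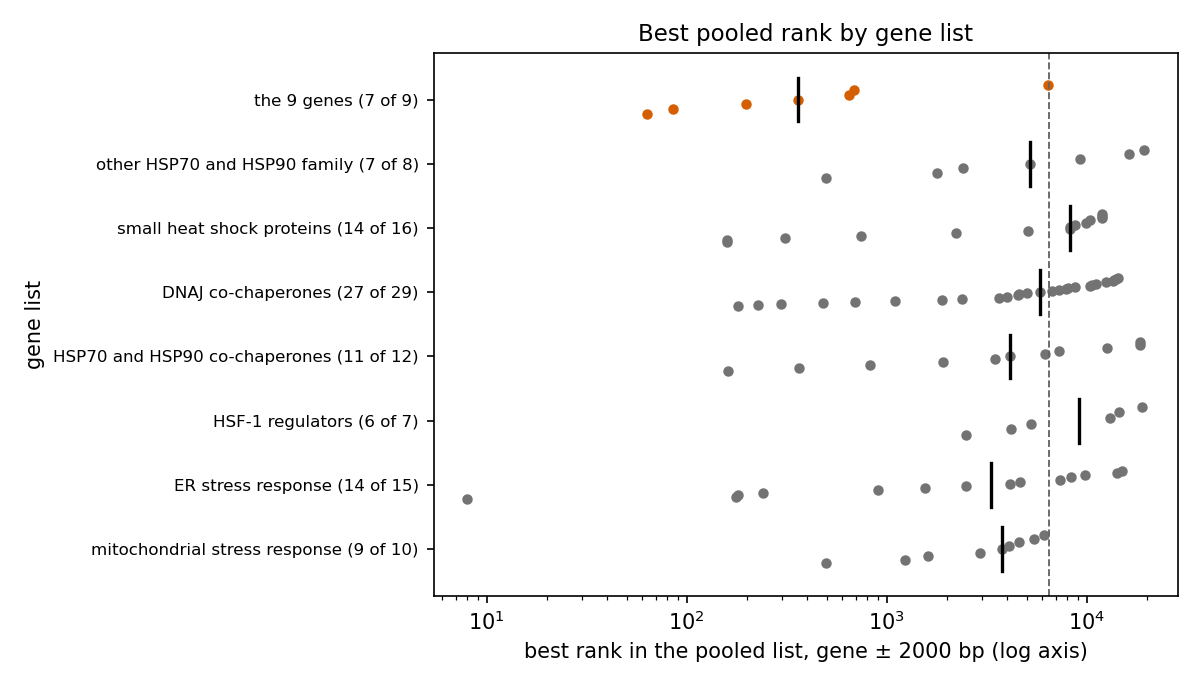
Best pooled rank of each gene (points, log axis, strong at the left) by gene list, with genes that have a pooled region out of all genes of the list in brackets; vertical spread within a row only separates the points. Black bars are list medians and the dashed line is the median of 6486 over all protein-coding genes with a region. Of the 9 genes (orange), 6 lie at rank 689 or better and hsf-1 lies at 6412.

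The genes most like hsp-90 and hsp-110 were those with the smallest Euclidean distance in log10 of the best rank over the 3 lists, which rest on 2 samples and their pool. For hsp-90 these were Y43F8B.2 (distance 0.0146, ranks 64, 266 and 70 in the pooled, replicate 1 and replicate 2 lists) and the pair cct-1 and mig-5, which share 1 region (distance 0.0779, ranks 62, 257 and 84). cct-1 encodes a subunit of the cytosolic chaperonin. For hsp-110 they were F25B4.4, prp-39 and hmgs-1, again sharing 1 region (distance 0.0793, ranks 94, 108 and 206).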

How the data were processed

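Region lists of 2 replicates, their pool and the final set were used on build ce11. They were made by the authors from alignments and a control, per the file headers of the deposited listing. The caller, its settings and the threshold on the irreproducible discovery rate were left unnamed (not given in the sources used here). Column 7 is the signal the authors deposited, with no stated scale, and column 9 is the deposited −log10 of the q-value. Build ce10 lists were not used.

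Coordinates count from 1. Ensembl release 115 for WBcel235, the assembly of ce11, gave genes and starts, and the RefSeq genome of WBcel235 gave sequence. No region ended beyond its chromosome. The 9 genes, the wider lists and the comparisons were chosen with earlier results of these data known. Named were the 9 genes, neighbours within 1000 bp of their strongest summits or overlapping them, the 3 most similar genes per gene with a final peak, and the 4 best-ranked genes per wider list. Of the wider list names, hsp-16.11, hsp-16.49, dnj-6 and hsf-2 had no match. trap-1 was taken out after values had been seen, since the worm gene of that name is not an HSP90. Sharing a name, annotated copies counted separately. No test was run, because the genes were chosen on these lists. Counting and motif search (Python 3.11.15, pandas 2.3.3) were tested on simulated data with known answers. Alternatives were other flanks, summit rules, list lengths, overlap rules, motif windows, and each replicate left out.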

Additional observations from a re-analysis of the deposited data

How the results depend on the processing

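Of 85 alternatives, 64 left their value within 1.5 times the count reported (for motif shares, within its exact 95% binomial interval, and for ranks, within 1 SD of the replicates) and 21 moved it. The 64 include the strongest pooled regions, as many as final peaks, which are the final set itself, so that value could not move. The number of the 9 genes with a region moved to 3 with pooled q values of at most 0.05, to 4 with the 1000 strongest regions of replicate 2, and to 2 for overlapping regions among the 1000 strongest of both replicates. With 1 replicate left out, final genes ranged from 1 to 2 (1 without replicate 1). The share of all genes with a region moved to 30.5%, 30.2% and 30.1% with the 5000 strongest pooled, replicate 1 and replicate 2 regions, and to 7.65%, 7.64% and 7.65% with the 1000 strongest. For overlapping regions it moved to 5.33% and 1.69%, and for final peaks to 0.966% with flanks of 500 bp. In 100 bp around the summit the share of the 25 regions moved to 8% for TTCNNGAA, where 7.2% of all pooled regions held it. It moved to 20% for GAANNTTC (7.42% of all pooled regions), 24% for either (13.3%) and 4% for the full heat shock element (0.742%). A shorter window lowers the shares by construction. The 300 bases at annotated starts were cut from the genome because no promoter table was given. There the shares of the 9 genes were 66.7% for TTCNNGAA (23.4% of all genes) and 77.8% for GAANNTTC (22.8%). They were 55.6% for the full element (2.53%) and 22.2% for TGACGTG (3.84%). The 10-fold comparison of replicate ranks, chosen once values were known, gave 5 regions with a 5-fold limit (57.8% of all) and 7 of 9 with ranks 163 to 5000 (22.6%). No paired analysis was possible because the series holds 1 group. Depth limits cannot be given, since the lists used hold no counts.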

Other observations

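A stretch of 8 letters, GTCTCGCA, was seen in the printed hsp-110 sequence and then searched on both strands. Of the 25 regions, 2 held it in their 300 bases, the hsp-110 region 10 bp from the summit and the upstream hsp-6 region 43 bp from the summit. Over the whole pooled list the share of regions with GTCTCGCA was 4.94% among ranks 1 to 162, 1.31% among ranks 163 to 1000, 0.975% among ranks 1001 to 5000 and 0.542% among ranks 5001 to 20876. The motif was picked after the sequence had been read, so the values describe these lists only.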
